A study of Mus musculus with 12 samples.

Results

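The genes described are 35 markers of enteric neurons and enteric glia, picked by symbol from the 21899 genes of the deposited table, and all 35 were found there and passed the low-count filter that left 14393 genes for testing. They comprise 11 transmitter and neuropeptide genes, 16 pan-neuronal genes, 2 lineage regulators and 6 glial genes. Colon RNA came from 12 mice that had received 2.5% DSS (dextran sulfate sodium, used to induce colitis) over 7 days. In 6 of them Pck1, the cytosolic phosphoenolpyruvate carboxykinase of gluconeogenesis, was knocked out in intestinal epithelial cells only (the knockout), and 6 littermates served as controls. The labels do not name the Cre driver, the strain, the age or the sex, and mice without DSS were not analysed here.

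The enteric nervous system lies in the colon wall as a myenteric plexus between the muscle layers and a submucosal plexus beneath the mucosa. Its motor neurons, interneurons and sensory neurons use acetylcholine, nitric oxide and peptides as transmitters, and vasoactive intestinal peptide and nitric oxide relax the muscle while acetylcholine and tachykinins contract it. Enteric glia surround these neurons and send processes into the mucosa, and Gfap is known as a marker of reactive glia in gut inflammation.

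Library totals ran from 15348192 to 18211663 counts in the knockout and from 15881625 to 19138507 in the control. Pck1 was between 1.73 and 4.65 TPM (the deposited length-scaled and depth-scaled transcript level) in the knockout libraries and between 24.4 and 54.6 TPM in the control libraries. It fell by 3.66 on the log2 scale (SE 0.32; edgeR's quasi-likelihood test, adjusted p = 0.000391). In this test 4 genes were higher (0.0278% of those tested) and 4 lower (0.0278%) at an adjusted p under 0.05, and 0 of the 35 members passed in either direction. Of the members 32 had a log2 fold change above 0 and 3 below, with a median of 0.70. At an adjusted p under 0.1 in edgeR 18 members were higher and 0 lower, against 6.59% and 3.02% of the tested genes. At an unadjusted p under 0.05 these numbers were 25 and 0, against 13.1% and 9.48%. None of the 35 members was at 0 counts in any library.

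The gene starts of 3 members are shown because Vip and Npy are among the 3 members whose genotypes did not overlap, and because Cartpt holds the complete cyclic AMP response element that is known from several peptide genes. Each run gives 250 bases before to 50 bases after the start site (RefSeq, build GRCm38.p6). Capitals mark the element's core TGACG on either strand. The Vip window lies at chr10:5638968-5639267 on the plus strand, the Npy window at chr6:49822460-49822759 on the plus strand and the Cartpt window at chr13:99900634-99900933 on the minus strand.
Vip: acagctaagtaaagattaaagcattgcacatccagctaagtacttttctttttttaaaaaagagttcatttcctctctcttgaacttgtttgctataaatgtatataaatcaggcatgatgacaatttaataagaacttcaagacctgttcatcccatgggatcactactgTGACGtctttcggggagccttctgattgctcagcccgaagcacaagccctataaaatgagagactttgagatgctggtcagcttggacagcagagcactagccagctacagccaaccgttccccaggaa
Npy: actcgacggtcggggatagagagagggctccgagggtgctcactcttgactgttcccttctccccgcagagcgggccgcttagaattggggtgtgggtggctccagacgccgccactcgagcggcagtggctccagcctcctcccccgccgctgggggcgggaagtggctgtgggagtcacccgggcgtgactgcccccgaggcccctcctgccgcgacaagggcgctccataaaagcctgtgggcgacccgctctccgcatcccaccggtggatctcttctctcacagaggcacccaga
Cartpt: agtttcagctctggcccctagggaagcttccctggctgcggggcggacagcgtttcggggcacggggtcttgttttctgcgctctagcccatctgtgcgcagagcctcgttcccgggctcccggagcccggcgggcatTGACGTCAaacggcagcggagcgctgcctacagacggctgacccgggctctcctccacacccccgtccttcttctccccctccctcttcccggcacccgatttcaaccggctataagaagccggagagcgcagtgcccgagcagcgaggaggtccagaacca

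Of the 35 members 23 had such a window in the table used. The complete element TGACGTCA was in the windows of 3 members, Cartpt, Foxd3 and Scg2, and in 2.03% of all 27025 genes with a window. The core TGACG, which the complete element contains on both strands, was in 11 of the 23 members and in 23.0% of all genes. It was in 4 of the 5 peptide genes with a window (Vip, Tac1, Gal and Cartpt) and not in that of Npy. These matches describe letters in 300 bases and were not tested against expression.

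Neuropeptide genes had the highest median log2 fold change of the roles. All 6 peptide precursors had a log2 fold change above 0, from 0.70 to 1.55 with a median of 1.30, where 45.1% of all tested genes were above 0 and their median was -0.03. None passed an adjusted p under 0.05 in edgeR, and 5 of the 6 (all but Tac1) were under 0.1, as were 949 higher genes among those tested (6.59%).

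Vip encodes vasoactive intestinal peptide, an inhibitory transmitter of muscle and a stimulant of epithelial secretion. Its level was 101, 156 and 225 TPM (lowest, median and highest of 6 mice) in the knockout and 39.1, 57.3 and 96.0 TPM in the control. Every knockout library lay above every control library, by a narrow margin between knockout replicate 4 and control replicate 4. The log2 fold change of Vip (ENSMUSG00000019772) was 1.25 ± 0.23 (SE; edgeR adjusted p = 0.0512).

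Penk encodes the enkephalin precursor, made by excitatory motor neurons and known also from stromal and immune cells. It ran at 37.6, 58.9 and 135 TPM in the knockout and at 16.4, 21 and 32.3 TPM in the control, again without overlap. Its log2 fold change was 1.47 ± 0.28 (ENSMUSG00000045573; edgeR adjusted p = 0.0512). Npy, the neuropeptide Y of sympathetic fibres and of some enteric neurons, was at 2.50, 3.76 and 5.91 TPM against 0.409, 1.27 and 2.03 TPM. The genotypes did not overlap for Npy either, though this gene was read at only 2 to 30 counts per library (log2 fold change 1.55 ± 0.35; ENSMUSG00000029819; edgeR adjusted p = 0.0531). Separation of every knockout from every control library, in the knockout's favour, was seen in 3 of the 35 members and in 188 of all tested genes (1.31%).

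**Figure D1:**
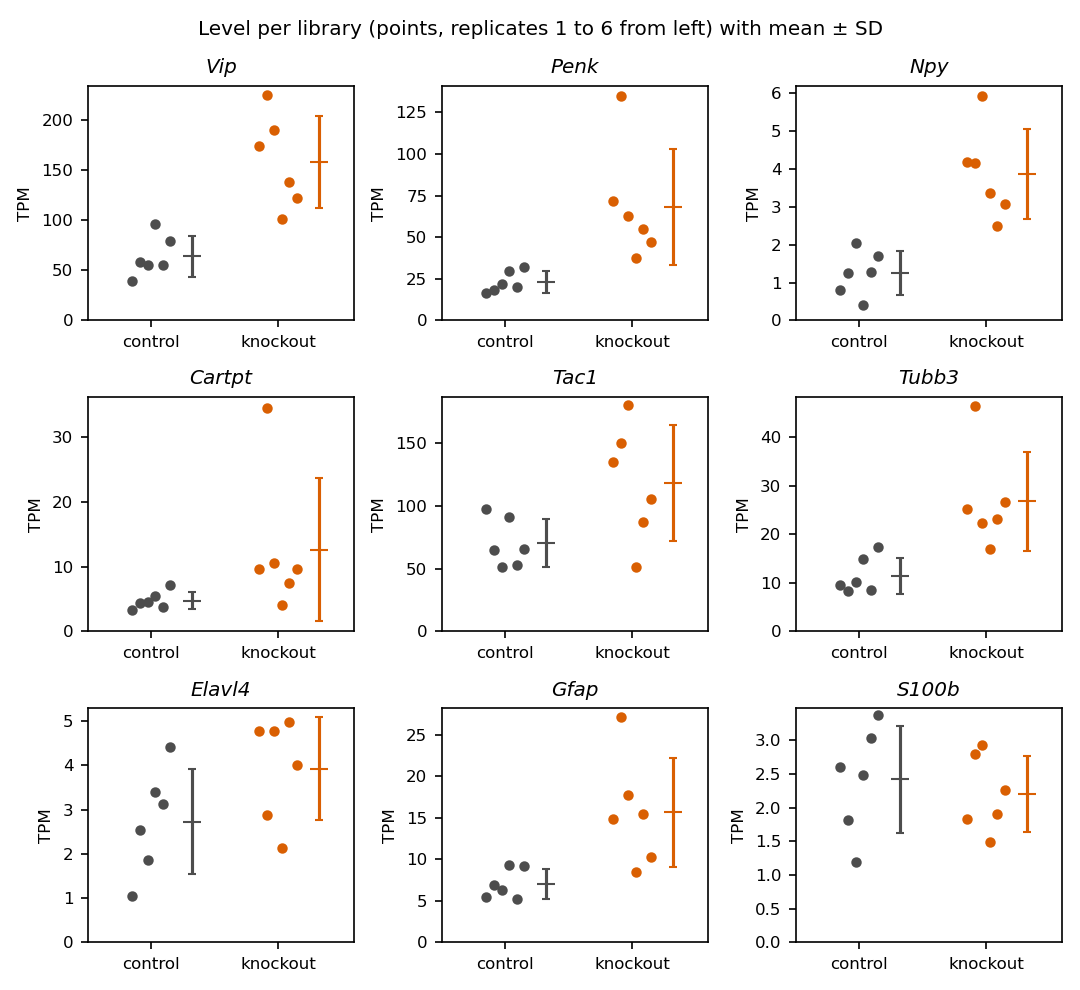
TPM of 9 genes in the 12 libraries (points; replicates 1 to 6 from left to right within each genotype) with the mean and SD beside them. The 6 knockout points lie above the 6 control points for Vip, Penk and Npy, and knockout replicate 2 stands alone at 34.5 TPM for Cartpt and at 46.3 TPM for Tubb3.

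Gal and Cartpt rested in part on 1 mouse. Gal, the precursor of galanin, which acts on enteric transmission and secretion, was at 13.9, 18.7 and 56.1 TPM in the knockout and 6.48, 8.88 and 17.6 TPM in the control. Cartpt, the precursor of the CART peptide of descending neurons, was at 4.07, 9.60 and 34.5 TPM against 3.32, 4.45 and 7.12 TPM. Knockout replicate 2 held the highest value of both genes, and the genotypes overlapped. Their log2 fold changes were 1.22 ± 0.37 and 1.34 ± 0.43 (edgeR adjusted p = 0.0813 and 0.0934), and without that mouse they were 0.83 and 0.76.

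Tac1, the precursor of substance P and neurokinin A, the excitatory tachykinins, was at 51.6, 120 and 180 TPM against 51.5, 65.3 and 97.0 TPM. Knockout replicate 4 was at the level of the lowest control and the genotypes overlapped widely (log2 fold change 0.70 ± 0.27; edgeR adjusted p = 0.147). The order of the leading peptides differed in level: Vip exceeded Tac1 in 6 of 6 knockout libraries, with a Vip to Tac1 ratio of TPM from 1.06 to 1.95. In the control it did so in 4 of 6 libraries, with a ratio from 0.403 to 1.21, so these ranges overlap. This ratio was not tested.

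Among transmitter enzymes and transporters, Nos1, the neuronal nitric oxide synthase of inhibitory neurons, was at 4.85, 7.6 and 14.2 TPM against 2.85, 4.85 and 7.44 TPM (log2 fold change 0.73 ± 0.23; edgeR adjusted p = 0.0886). Slc18a3, the vesicular acetylcholine transporter, was at 1.7, 3.59 and 6.50 TPM against 0.954, 1.56 and 2.91 TPM (1.12 ± 0.32; edgeR adjusted p = 0.0721). The genotypes overlapped for each of these genes. Chat, the acetylcholine-synthesising enzyme, whose locus encloses Slc18a3, was near the limit of detection at 2 to 27 counts per library. Its level was 0.453 to 1.06 TPM in the knockout and 0.070 to 1.11 TPM in the control (log2 fold change 0.99 ± 0.45, edgeR adjusted p = 0.211). Control replicate 6 was the highest of all in TPM, while in counts knockout replicate 2 was above it, at 27 against 16.

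Dbh, the noradrenaline-synthesising enzyme of sympathetic fibres, was at 3.32 to 8.25 TPM against 1.92 to 4.71 TPM (log2 fold change 0.60 ± 0.24; edgeR adjusted p = 0.167). Calb2, the calcium-binding protein calretinin of many excitatory and sensory neurons, was the closest to 0 of the 11, at 11.7 to 21.2 TPM against 11.7 to 14.5 TPM (0.23 ± 0.13; edgeR adjusted p = 0.335), and its log2 fold change without knockout replicate 2 was 0.14. Over the 5 non-peptide genes of this class the median log2 fold change was 0.73, and 4 of the 5 were higher at an unadjusted p under 0.05. That was also true of all 6 peptides and of 1885 of the tested genes (13.1%).

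**Figure D2:**
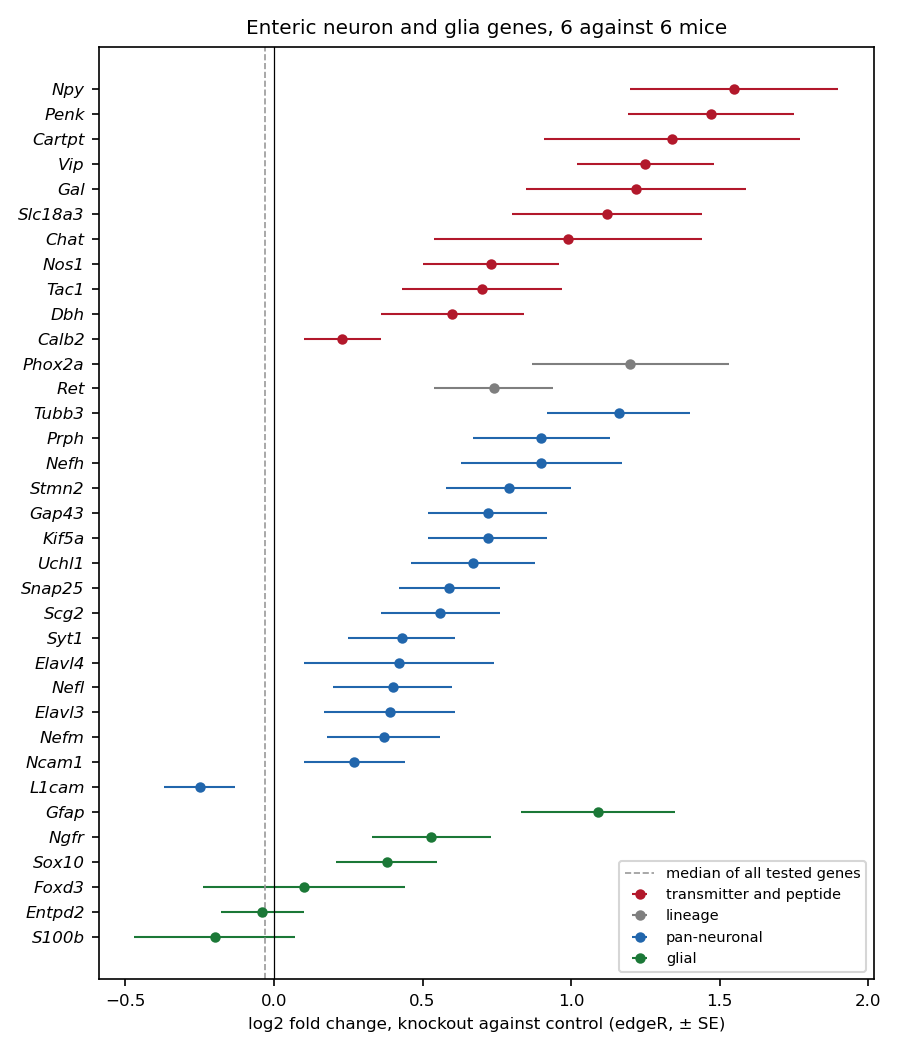
Log2 fold change of the 35 members, knockout against control, with its SE derived from edgeR's F statistic, ordered by role and size. The dashed line is the median of all tested genes at -0.03. Peptide genes reach 1.55, most pan-neuronal genes lie between 0.27 and 1.16, and L1cam, Entpd2 and S100b lie below 0.

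Pan-neuronal genes, which mark neurons whatever their transmitter, were above 0 in 15 of 16, with a median log2 fold change of 0.57. Of these 8 were higher at an adjusted p under 0.1 (6.59% of all tested genes) and 10 at an unadjusted p under 0.05 (13.1%). After adjustment in edgeR, 0 of the 16 passed 0.05. Tubb3, the neuronal β-tubulin, led them at 17.0, 24.2 and 46.3 TPM in the knockout and 8.26, 9.82 and 17.4 TPM in the control. Only control replicate 6, at 17.4 TPM, reached above the lowest knockout, replicate 4 (log2 fold change 1.16 ± 0.24; ENSMUSG00000062380; edgeR adjusted p = 0.0531).

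Among the cytoskeletal genes, Prph, the peripherin filament of peripheral neurons, was at 18.8, 26.3 and 50.5 TPM against 13.3, 16.9 and 20.7 TPM (log2 fold change 0.90 ± 0.23; edgeR adjusted p = 0.0615). Of the neurofilament chains the heavy one, Nefh, stood at 0.90 ± 0.27 on the log2 scale, while the light chain Nefl stood at 0.40 ± 0.20 and the medium chain Nefm at 0.37 ± 0.19, with edgeR adjusted p values of 0.0820, 0.256 and 0.282. All 3 chains were low in level: the highest library held 1.59 TPM of Nefh, 2.18 TPM of Nefm and 5.37 TPM of Nefl. Nefl and Nefm share exon bases on opposite strands in the GENCODE M21 annotation, so reads in the shared bases cannot be assigned without strand.

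Axon growth and transport genes followed. Stmn2, a microtubule regulator of growing axons, was at 13.3, 20.0 and 30.1 TPM against 7.43, 11.4 and 16.1 TPM (log2 fold change 0.79 ± 0.21; edgeR adjusted p = 0.0634). Gap43, a growth cone protein, was at 8.47, 12 and 15.4 TPM against 5.22, 6.15 and 10.8 TPM (0.72 ± 0.20; edgeR adjusted p = 0.0694). Kif5a, a kinesin motor of axonal transport, stood at 0.72 ± 0.20 (edgeR adjusted p = 0.0659). Uchl1, the abundant neuronal ubiquitin hydrolase PGP9.5, was at 23.9, 35.1 and 66.2 TPM against 17.9, 23.0 and 27.1 TPM (0.67 ± 0.21; edgeR adjusted p = 0.0836). In each of these 4 genes 1 or more control libraries reached above the lowest knockout library.

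Among synaptic and secretory genes, Snap25, a SNARE protein of vesicle fusion, was at 11.6, 15.3 and 18.2 TPM against 7.42, 9.88 and 12.4 TPM (log2 fold change 0.59 ± 0.17; edgeR adjusted p = 0.0731). Scg2, a granin of peptide vesicles, was at 15.4 to 38.1 against 13.1 to 20.5 TPM (0.56 ± 0.20), and Syt1, the calcium sensor of release, at 3.99 to 6.65 against 2.24 to 4.72 TPM (0.43 ± 0.18). Both missed the threshold of 0.1, at edgeR adjusted p values of 0.120 and 0.176. Scg2 and Uchl1 are also known from enteroendocrine cells, and the part of those cells in their values was not tested.

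The RNA-binding proteins Elavl3 and Elavl4 are often used to count enteric neurons. Elavl4 was at 2.14, 4.39 and 4.97 TPM in the knockout and 1.04, 2.83 and 4.41 TPM in the control (log2 fold change 0.42 ± 0.32; edgeR adjusted p = 0.472). Elavl3 was at 0.560, 0.885 and 1.16 TPM against 0.395, 0.542 and 0.830 TPM (0.39 ± 0.22; edgeR adjusted p = 0.324). For Elavl3, 4 knockout libraries lay above all 6 controls, and for Elavl4 3 did; knockout replicates 2 and 4 were among those that did not in either gene. Elavl3 shares exon bases with another coding gene on its strand, and Penk, Nos1, Ncam1 and Uchl1 with noncoding genes on the opposite strand. The adhesion molecule Ncam1 stood at 0.27 ± 0.17 (4.16 to 10.2 against 3.96 to 6.30 TPM; edgeR adjusted p = 0.361), and at 0.13 without knockout replicate 2. Without control replicate 1, Elavl4 stood at 0.25.

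L1cam, an axonal adhesion molecule, was the pan-neuronal member below 0, at 22.7, 31.9 and 37.6 TPM against 28.0, 37.1 and 42.1 TPM (log2 fold change -0.25 ± 0.12; edgeR adjusted p = 0.226). It was also the most abundant of the 16 in the control. Its exons share bases with those of Arhgap4 on the same strand in the annotation, so part of its count could come from that gene. Whether it did was not tested.

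Both lineage regulators were above 0. Ret, the receptor for glial cell line-derived neurotrophic factors that enteric precursors need, was at 10, 15 and 23.5 TPM in the knockout and 6.46, 8.45 and 11.1 TPM in the control (log2 fold change 0.74 ± 0.20; edgeR adjusted p = 0.0636). Phox2a, a homeodomain factor of autonomic neurons, was at 1.31, 2.07 and 5.15 TPM against 0.709, 1.05 and 1.43 TPM (1.20 ± 0.33; edgeR adjusted p = 0.0644). The genotypes overlapped for each. Phox2a shares exon bases with Inppl1 on the opposite strand.

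The glial genes were split. Their median log2 fold change was 0.24 over 6 genes, with 4 above 0 and 2 below, and 1 of them was higher at an adjusted p under 0.1 in edgeR (6.59% of all tested genes). That median was 0.08 without knockout replicate 2. Of the 6 glial genes, 3 were higher and 0 lower at an unadjusted p under 0.05 in edgeR, against 13.1% and 9.48% of all tested genes. Gfap, the glial filament protein, stood apart at 8.45, 15.2 and 27.1 TPM against 5.26, 6.62 and 9.31 TPM (1.09 ± 0.26; ENSMUSG00000020932; edgeR adjusted p = 0.0559). Control replicates 4 and 6 lay above the lowest knockout, replicate 4, and no other control did.

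Sox10, the transcription factor that enteric glia keep from the neural crest, was at 2.51, 2.97 and 4.13 TPM against 1.69, 2.37 and 2.98 TPM (log2 fold change 0.38 ± 0.17; edgeR adjusted p = 0.208). Ngfr, the low-affinity neurotrophin receptor p75, was at 4.48, 5.82 and 10.6 TPM against 3.22, 4.05 and 5.5 TPM (0.53 ± 0.20; edgeR adjusted p = 0.148), and its log2 fold change without knockout replicate 2 was 0.33. The genotypes overlapped for both genes.

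S100b, the calcium-binding protein used to stain enteric glia, was at 1.49, 2.08 and 2.93 TPM against 1.20, 2.55 and 3.37 TPM (log2 fold change -0.20 ± 0.27; edgeR adjusted p = 0.720), and its log2 fold change ran from -0.34 to -0.07 with single mice left out. Foxd3, a neural crest transcription factor, stood at 0.10 ± 0.34 with 6 to 33 counts per library (edgeR adjusted p = 0.892). Entpd2, an ATP-cleaving ectoenzyme of enteric glia also known from other stromal cells, was at 19.5, 20.6 and 30.1 TPM against 18.7, 20.6 and 28.2 TPM (-0.04 ± 0.14; edgeR adjusted p = 0.889). Entpd2 and Npdc1 share exon bases on the same strand. Leaving out single mice turned the sign of Foxd3 and of Entpd2, so neither has a direction here.

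The roles were also compared within each library. The mean log2 CPM (library-scaled counts) of the 6 peptides minus that of the 16 pan-neuronal genes, centred on all libraries, was 0.29 ± 0.36 in the knockout and -0.29 ± 0.10 in the control (SD, n = 6). Knockout replicates 1, 2 and 3 lay at 0.41, 0.75 and 0.61, replicates 4, 5 and 6 at 0.01, -0.17 and 0.11, and the controls between -0.46 and -0.17. The glial level minus the pan-neuronal level was -0.13 ± 0.19 against 0.13 ± 0.21, with the genotypes overlapping. No p is given for these scores, because the members were chosen with results of these libraries known.

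**Figure D3:**
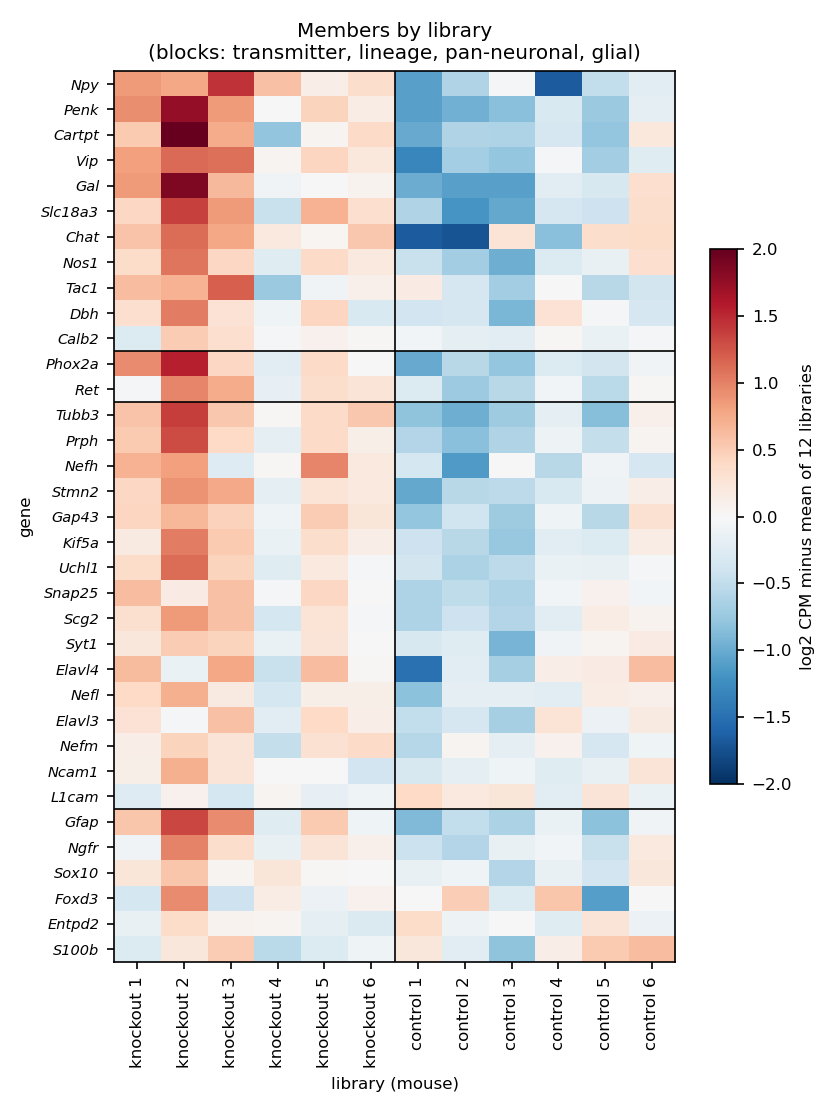
Log2 CPM of each member in each library minus its mean over the 12 libraries (red above, blue below; the scale ends at 2 in both directions), in blocks by role. Knockout replicate 2 is reddest, and knockout replicate 4 is blue in most members, with a mean of -0.15 over all members. L1cam, Entpd2 and S100b do not follow the rest.

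The order of mice was shared by many members. Knockout replicate 2 held the highest TPM of all 12 libraries in 26 of the 35 members, and knockout replicate 4 the lowest of the 6 knockouts in 25. Among controls, replicate 6 was highest in 21 members, while replicates 1, 2 and 3 were lowest in 10, 8 and 11. The mean level of all 35 members, as log2 CPM from the mean of all libraries, was 0.89 in knockout replicate 2 and -0.15 in knockout replicate 4. The other knockouts lay between 0.10 and 0.50. Control replicates 6, 4 and 5 were at 0.07, -0.17 and -0.26, and replicates 1, 2 and 3 between -0.56 and -0.50. The 9 members in which knockout replicate 2 was not the highest include Elavl3, Elavl4 and Snap25, in which it lay below 3 or more of the other knockouts.

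Other neuronal and glial genes were described from 4 further lists with 79 genes, of which 66 were tested. Of these 55 were above 0 and 11 below, with a median log2 fold change of 0.50. None passed an adjusted p under 0.05 in edgeR. At an adjusted p under 0.1, 15 were higher and 2 lower, against 6.59% and 3.02% of all tested genes. At an unadjusted p under 0.05, 29 were higher and 4 lower, against 13.1% and 9.48%.

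Among the other pan-neuronal genes 17 of 19 were above 0 (median 0.52), led by the adhesion molecule Cadm3 (10.7 ± 4.10 against 5.45 ± 1.36 TPM, SD, n = 6), the synaptic vesicle protein Syn1 (3.46 ± 1.13 against 1.94 ± 0.174 TPM) and the complexin Cplx1 (2.64 ± 0.987 against 1.40 ± 0.211 TPM). Their log2 fold changes were 0.87, 0.76 and 0.88, with edgeR adjusted p values of 0.0605, 0.0615 and 0.0636. Vamp2, the most abundant gene of that list and used by other secretory cells too, stood at 0.20 ± 0.17. Among 17 tested lineage and trophic genes 16 were above 0 (median 0.56). Hand2, a factor of enteric neuron development that gut mesenchyme also expresses, was at 20.6 ± 6.36 against 10.5 ± 2.83 TPM, and the ligand Artn at 3.02 ± 0.961 against 1.48 ± 0.545 TPM. Their log2 fold changes were 0.91 and 1 (edgeR adjusted p 0.0531 and 0.0651).

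Receptors and further transmitters were mixed, with 15 of 20 above 0 (median 0.47). At an adjusted p under 0.1 in edgeR 6 were higher and 2 lower, against 6.59% and 3.02% of all tested genes. The 2 lower genes were Htr4 at -0.87 ± 0.27 and Ddc at -0.67 ± 0.19 (edgeR adjusted p = 0.0857 and 0.0721). Tacr1, the receptor of substance P, was at 7.98 ± 2.22 against 3.23 ± 1.66 TPM (log2 fold change 1.25 ± 0.30; edgeR adjusted p = 0.0569). Htr3a, a serotonin-gated channel of enteric neurons, was at 15.2 ± 4.42 against 8.98 ± 1.73 TPM (0.70 ± 0.18; edgeR adjusted p = 0.0615), and Sst, the somatostatin of neurons and endocrine cells, stood at 0.76 ± 0.21. Vipr1, the epithelial receptor for the Vip peptide and the most abundant gene of that list, stood at -0.18 ± 0.10 (79.2 ± 9 against 86.0 ± 12.3 TPM; edgeR adjusted p = 0.311).

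Further glial and Schwann cell genes were like the glial members, with 7 of 10 above 0 and a median of 0.27. Gpm6b, a membrane glycoprotein of glia and neurons, was at 24.2 ± 6.58 against 10.3 ± 5.78 TPM (log2 fold change 1.17 ± 0.30; edgeR adjusted p = 0.0602). The myelin genes Mbp and Pmp22, both known also from non-neural cells, stood at -0.30 ± 0.13 and -0.40 ± 0.17 (edgeR adjusted p = 0.185 and 0.176).

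Markers of other cells in the wall were read beside these values, because whole tissue was sequenced. In such bulk samples a different number of cells of a type and a different amount of RNA per cell cannot be told apart. Smooth muscle genes, which share the layers of the myenteric plexus, were below 0 in 11 of 12 (median -0.26), with a summed level of 2050 to 3130 TPM in the knockout and 2030 to 4180 TPM in the control. Tagln stood at -0.28 ± 0.17 and Acta2 at -0.13 ± 0.15 on the log2 scale. A mixed list of pacemaker and other interstitial cell genes was at 91.8 to 153 against 90.8 to 111 TPM in sum (median 0.15). In it 4 genes were above 0 and 2 below. Ano1, the chloride channel of interstitial cells of Cajal, stood at -0.65 ± 0.16. Pdgfra, which fibroblasts also express, stood at 0.82 ± 0.27. It held the largest part of the knockout sum, at 54.7 ± 20.3 against 29.8 ± 11.7 TPM (SD, n = 6).

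Fibroblast and endothelial genes were above 0, as most members were. The 8 fibroblast genes were all above 0 (median 0.69; summed level 2000 to 4720 against 1210 to 2470 TPM), with Dcn at 1.06 ± 0.29 and Col3a1 at 0.79 ± 0.27. All 6 endothelial genes were above 0 (median 0.64; 179 to 382 against 121 to 193 TPM), with Plvap at 0.67 ± 0.16 and Pecam1 at 0.60 ± 0.16. Both lists, like the members, were highest in knockout replicate 2 and lowest among the knockouts in replicate 4. Of 8 immune genes 7 were above 0 (median 1; 696 to 3060 against 362 to 1500 TPM), with S100a9 at 1.81 ± 0.75 and Ly6g at 0.75 ± 0.34. The immune list was likewise highest in knockout replicate 2 and lowest among the knockouts in replicate 4. The part of these cells in the members' values was not tested.

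Enteroendocrine cells share several peptides and granins with neurons. All 12 genes of their list were below 0 (median -0.40; 265 to 556 against 547 to 929 TPM), with Pyy at -0.66 ± 0.25 and Gcg at -0.39 ± 0.18. Sst, which endocrine cells also make and which is not in that list, stood at 0.76 ± 0.21. The part of endocrine cells in the members' values was not tested. Epithelial genes were below 0 in 8 of 10 (median -0.21; 9960 to 13300 against 10500 to 13900 TPM), with Krt8 at -0.25 ± 0.11 and Car1 at 0.12 ± 0.43. Fat and pancreas genes varied most between mice, at 121 to 1460 against 183 to 16500 TPM, with medians of 746 and 847 TPM. Of 7 tested genes 6 were below 0 (median -2.42), among them Cela1 at -2.49 ± 0.95 and Prss2 at -2.75 ± 1.59. The fat gene Fabp4 stood at 0.79 ± 0.33. Control replicate 6 had the highest level of this list, 3.84 above the mean of all libraries on the log2 scale. The median of Prss2 was 167 TPM in the knockout and 177 TPM in the control. How far these fold changes rest on that mouse was not tested. Of all these marker genes for other cells, 0 were at 0 counts in every library.

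**Figure D4:**
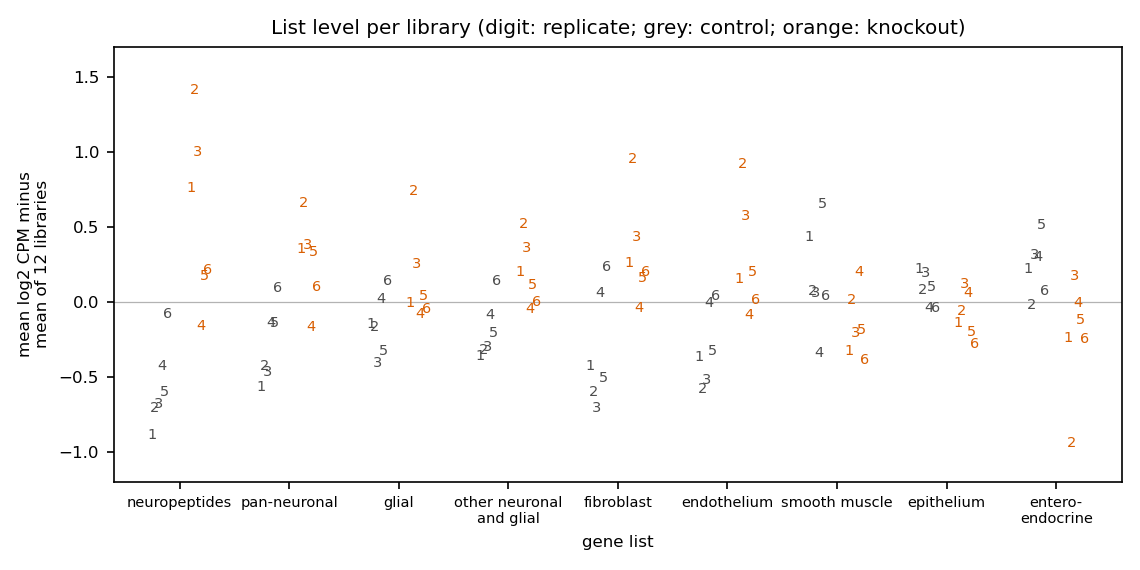
Mean log2 CPM of each gene list in each library minus the mean of the 12 libraries (digits are replicate numbers; grey control, orange knockout). Peptide levels run from -0.16 to 1.41 in the knockout and from -0.89 to -0.08 in the control. Fibroblast and endothelial lists show a like order of mice. Enteroendocrine genes lie lower on average in the knockout (-0.23 against 0.23), with the genotypes overlapping and knockout replicate 2 lowest at -0.94.

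The calls depended on the test and on single mice. In place of 0 members and 4 genes, DESeq2's Wald test called 17 members and 1103 of all genes higher. It gave no adjusted p for Chat, Npy and Foxd3, which therefore could not be called. Limma voom called 1 member and 30 genes, and edgeR with library size as the only scaling 5 members and 230 genes. Without knockout replicate 4, edgeR called 19 members higher and 870 of all genes. Without control replicate 6 it called 11 members and 272 genes, without control replicate 4 it called 7 members and 728 genes, and without any other mouse 0 members. The authors' deposited table, whose test is not named, lists 18 of the 35 members higher at an FDR under 0.05 and 0 lower, where 4.65% of its genes are higher. In the authors' deposited table these 18 are 7 transmitter, 8 pan-neuronal, both lineage and 1 glial gene, with Penk at an FDR of 8.72e-05 and Vip at 8.8e-05.

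**Figure D5:**
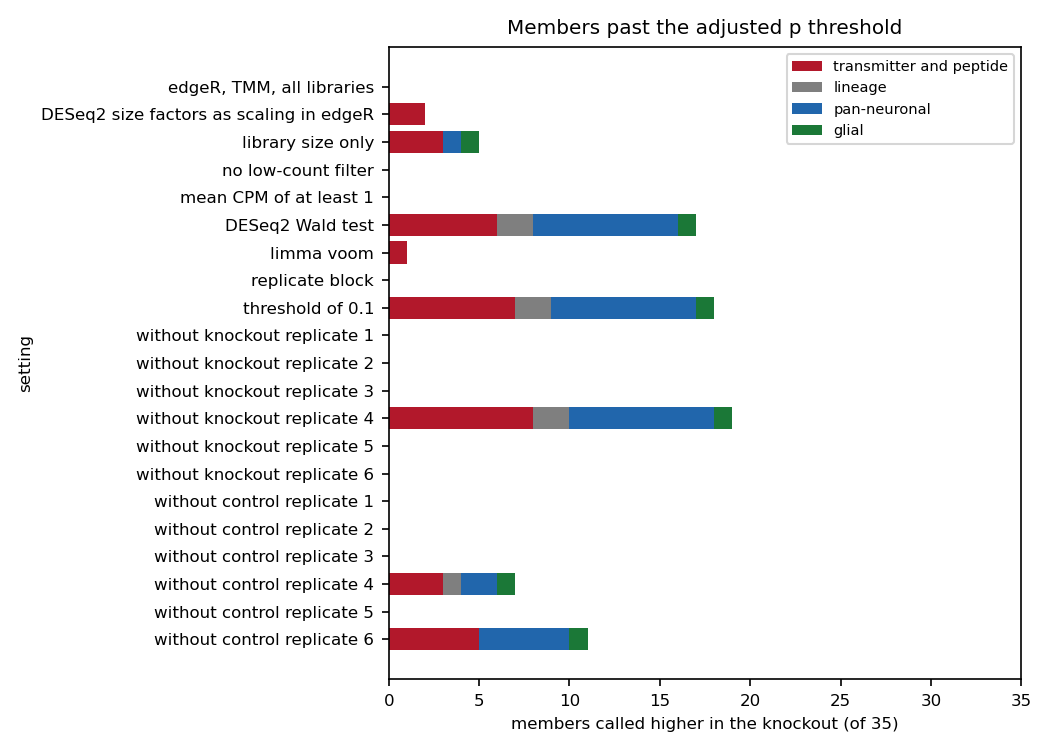
Number of the 35 members called higher in the knockout under each setting, stacked by role; all settings use an adjusted p under 0.05 except the threshold of 0.1. The count runs from 0 in the fit with all libraries and in several others to 19 without knockout replicate 4, and no setting called a member lower.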

How the data were processed

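RNA came from whole colon by Trizol and libraries from the SMARTER mRNA-Seq kit, per the labels' protocols. The authors deposited raw read counts per gene and library, and, per the file headers, TPM. The same deposited table holds the authors' own log2 fold change, p-value and FDR, whose test is unnamed. Aligner, counter and use of strand: not given in the sources used here. The submitters' processing notes list GRCm38, mm10 and mm39.

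Groups and replicate numbers came from the labels. Testing used edgeR 4.0.16 (R 4.3.3) on the deposited counts: filterByExpr (minimum count 10, minimum total 15), TMM, glmQLFit and glmQLFTest over all 12 libraries with no covariate, and Benjamini-Hochberg adjustment over 14393 genes with a threshold of 0.05. Log2 fold changes are from that fit, and levels are deposited TPM. Each SE was derived from the fit's test, as the absolute log2 fold change over the square root of its F statistic. Per-library list levels are mean log2 CPM (prior count 2). Alternatives used DESeq2 1.42.0, limma 3.58.1, other scalings and filters, a replicate block and each library left out. The procedures were tested on simulated data. No libraries were alike within counting noise (chi-square per gene at least 19.4 in 66 combinations). P-values measure the spread between mice. Depth ran from 15348192 to 19138507 counts per library, which limits precision for low genes: 3 members had fewer than 10 counts in some library.

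All 35 members were named; of the other lists, the 3 tested genes with the smallest p and the most abundant gene, and of marker lists the 2 most abundant; 1 gene that this rule names is not reported here. The members and lists were chosen with earlier results of these data known. Sequences are RefSeq's, and exon overlaps were read from GENCODE M21 (GRCm38).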

Additional observations from a re-analysis of the deposited data

Results flagged for a closer look

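In 13 of 70 sets of 6 libraries (35 members in each genotype) 1 library lay farther from its nearest neighbour than Dixon's 95% limit allows; chance flags about 1 in 20 sets, but the members vary together, so these are not separate events. In 12 of the 13 the library was knockout replicate 2, which lay above the other knockouts. Its levels there were 66.2 TPM for Uchl1, 46.3 for Tubb3, 50.5 for Prph, 10.2 for Ncam1, 9.06 for Kif5a and 14.2 for Nos1, as TPM. The same library held 56.1 TPM of Gal, 34.5 TPM of Cartpt, 135 TPM of Penk, 1.59 TPM of Foxd3, 30.1 TPM of Entpd2 and 10.6 TPM of Ngfr. The nearest other knockout was at 10.5 TPM for Cartpt and 26.7 TPM for Gal. The remaining set was Ncam1 in the control, where replicate 6 stood at 6.30 TPM and the next control at 4.59 TPM.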

How the results depend on the processing

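The median log2 fold change of the 35 members stayed between 0.55 and 0.80 in the 19 alternatives with a fit of their own, against 0.70 (over 32 members with the filter of a mean CPM of at least 1, which left out Chat, Npy and Foxd3); the median of all tested genes stayed between -0.04 and 0.01. By role the median ran from 0.83 to 1.33 for transmitter genes, 0.48 to 0.66 for pan-neuronal, 0.75 to 1.09 for lineage and 0.08 to 0.38 for glial genes, the highest of these without Foxd3 under that filter. Of 662 single member values 595 kept their direction and their side of the threshold, 62 kept the direction and passed, and 5 changed sign: Foxd3 was at -0.17 without knockout replicate 2 and -0.06 without control replicate 5, and Entpd2 at 0.01, 0.03 and 0.00 without knockout replicate 6, control replicate 1 and control replicate 5. The 595 include Chat, Npy and Foxd3 under DESeq2's test, which gave them no adjusted p, so they were counted as not called. Over all libraries left out in turn Foxd3 ran from -0.17 to 0.25 and Entpd2 from -0.13 to 0.03. In all, 20 members passed in at least 1 alternative, Vip in 7 and Penk in 6 of the 19. How many of all tested genes did so was not counted, so the 20 cannot be set against a share of all genes. Genes called higher and lower, in place of 4 and 4, were 33 and 19 with DESeq2's size factors (2 members), 230 and 45 with library size only (5 members), 1103 and 429 with DESeq2's test (17 members), 30 and 19 with limma voom (1 member) and 949 and 435 at a threshold of 0.1 (18 members). Leaving out 1 library gave 0 to 870 higher and 2 to 402 lower genes, with 0 to 19 members higher. The cause of these shifts was not tested. The replicate numbers did not pair the mice (correlation of same-numbered deviations -0.50 to 0.08, and 0 of 6 libraries in each genotype correlated best with their own number); the fit with the replicate block called 0 higher genes, 1 lower gene and 0 members. Chat, Npy and Foxd3, at under 10 counts in some libraries, are limited by counting error.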
